A study of Mus musculus with 30 samples.

Results

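The genes of the 4 Hox clusters were followed across immortalised mouse embryonic fibroblasts (MEFs) that carried or lacked the stress kinase p38α. Members were the genes whose array symbol consists of Hox, a cluster letter from a to d and a number, and 38 such genes with 50 probes were found among 21689 named genes with 33453 probes. Cluster A had 11 genes on the array, cluster B 10, cluster C 8 and cluster D 9. Each value was the log2 ratio of a treated sample, labelled with Cy5, to a pool of 2 untreated wild type cultures, labelled with Cy3. There were 30 such arrays in 15 groups of 2.

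The wild type cells made up 11 groups. They received anisomycin (An, 25 ng/ml for 45 min), a translation inhibitor that activates stress kinases, the cytokine TNFα (100 ng/ml for 45 min, TNFalfa in the sample labels), or osmostress by 100 mM NaCl for 45 min, 2 h or 8 h. A further 5 groups received the same stresses with SB203580 (SB), a chemical inhibitor of p38, and 1 group had SB203580 alone. The sample labels give SB203580 as 10 mM for 2 h, whereas the treatment protocol gives 10 µM for 30 min before the stress. The p38α-/- cells, which lack Mapk14 in every group, made up 4 groups: untreated cells, and cells given the anisomycin, the TNFα or the 2 h NaCl treatment. Untreated wild type RNA was present only in the pool, so its own spread does not enter any test against the pool. The study's methods describe 2 independent experiments. The sources used here do not say how many embryos or lines gave rise to the knockout cells, so the genotype and the line cannot be told apart. Except in the fit within a single scan day, described further on, the p-values measure the spread between the 2 arrays of a group. The small number of arrays limits their precision. Dyes were not swapped, so a dye effect of a probe stays in its ratio to the pool. In bulk RNA, fewer expressing cells and less RNA per cell cannot be told apart.

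Hox genes encode homeodomain transcription factors that give cells their position along the head to tail axis. Paralogues in different clusters share a number, low numbers are expressed towards the head and high numbers towards the tail and the tips of the limbs. Fibroblasts keep a Hox pattern from the place they came from in the body, held in culture by Polycomb and Trithorax chromatin complexes. Retinoic acid induces the low-numbered genes in the embryo, and TALE homeodomain proteins such as Pbx and Meis bind DNA together with Hox proteins.

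The genotype labels were checked with Mapk14, the gene of p38α. Its log2 ratio lay between 0.05 and 1.31 in wild type cells (median 0.37, 16 arrays with a usable spot) and between -2.24 and -0.94 in p38α-/- cells (median -1.19, 6 arrays), with no overlap. Between 6.78% and 44.8% of the spots of an array carried an outlier flag of the scanner software and were left out, and 81.1% to 96.8% were well above background in Cy5. All 21 fibroblast markers were well above background on the 30 arrays, but so were all 10 epithelial and all 6 pluripotency markers, so this flag did not separate cell types.

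Of the 50 Hox probes, 44 list a RefSeq transcript and 43 of these list the named gene alone. The exception is the probe of Hoxb3 to NM_010458, which also lists the Hoxd3 transcript NM_010468. On at least 15 of the 30 arrays 11 probes carried an outlier flag, whereas 21 probes had none on any array. The probes of Hoxb1, Hoxc8 and Hoxc12 were not well above background in Cy5 on at least 15 arrays: Hoxb1 was above on 7 of 22 wild type and 4 of 8 knockout arrays, Hoxc8 on 1 of 22 and 1 of 8, and Hoxc12 on 6 of 22 and 3 of 8. Hoxd11 was above on 19 wild type arrays and on 3 knockout arrays. The ratios of these 4 genes therefore rest in part on dim signals.

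Sequences upstream of the start sites are shown for Hoxd8 and Hoxa10, the genes past the adjusted p between genotypes, as described further on, for which RefSeq windows were at hand. Such windows were found for 22 of the 38 members. Each runs over the 250 bases before a RefSeq start site, build GRCm38.p6, on the strand of the gene. The Hoxd8 window is chr2:74704365-74704614 on the plus strand. Those of Hoxa10 are chr6:52234940-52235189 and chr6:52240855-52241104 on the minus strand, from separate start sites. Capitals mark matches to 5 motifs searched on both strands.
Hoxd8: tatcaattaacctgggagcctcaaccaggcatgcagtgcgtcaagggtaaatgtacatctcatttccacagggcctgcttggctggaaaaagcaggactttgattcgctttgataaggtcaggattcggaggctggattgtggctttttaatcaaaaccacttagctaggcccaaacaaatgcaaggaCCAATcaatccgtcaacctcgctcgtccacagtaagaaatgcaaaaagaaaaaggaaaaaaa
Hoxa10, first window: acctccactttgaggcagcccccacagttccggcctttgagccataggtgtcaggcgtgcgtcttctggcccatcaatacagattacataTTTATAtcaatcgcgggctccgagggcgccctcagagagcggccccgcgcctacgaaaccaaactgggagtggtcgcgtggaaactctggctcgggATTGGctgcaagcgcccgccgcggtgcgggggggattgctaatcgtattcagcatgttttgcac
Hoxa10, second window: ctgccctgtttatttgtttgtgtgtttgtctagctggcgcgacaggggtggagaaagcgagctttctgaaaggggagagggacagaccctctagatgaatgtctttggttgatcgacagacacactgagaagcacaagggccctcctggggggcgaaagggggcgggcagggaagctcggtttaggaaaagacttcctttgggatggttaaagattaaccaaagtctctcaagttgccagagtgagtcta
The Hoxd8 window held 1 CCAAT match. The first Hoxa10 window held 1 match to TATAAA and 1 to CCAAT, each on the opposite strand, and the second held none. CCAAT was found in 14 of 24 windows of members and in 33.8% of all 32851 windows, and TATAAA in 4 member windows and 12.4% of all. The Hox and Pbx motif TGATNNAT was in 4 member windows (Hoxa2, Hoxb1, Hoxb8 and Hoxd11) against 7.68% of all, and the AP-1 motif TGACTCA in 1 (Hoxd11) against 4.46%. The cAMP response element TGACGTCA was in 0 member windows and in 1.55% of all.

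To ask whether Hox expression differed between genotypes, the mean of the 4 knockout groups was set against the mean of the 11 wild type groups with limma. Only wild type cells received SB203580 and the shortest and longest NaCl treatments, and only the knockout had an untreated group. Treatment thus differed between these means along with genotype, and the count with the shared treatments alone is given further on. No Hox gene differed by an adjusted p under 0.05 and at least 2-fold: 0 of the 31 members measured in every group passed, against 0.764% of 17149 genes. At the adjusted p alone and at any size, 6 of the 31 passed, which is 19.4% beside 17.9% of all genes tested and so close to the background. Hoxd8, Hoxb7 and Hoxa4 were higher in p38α-/- MEFs and Hoxb3, Hoxb2 and Hoxa10 were lower. The arrays of the genotypes overlapped for all members, 0 of 31 being separate, whereas 1.16% of all genes did not overlap.

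**Figure D1:**
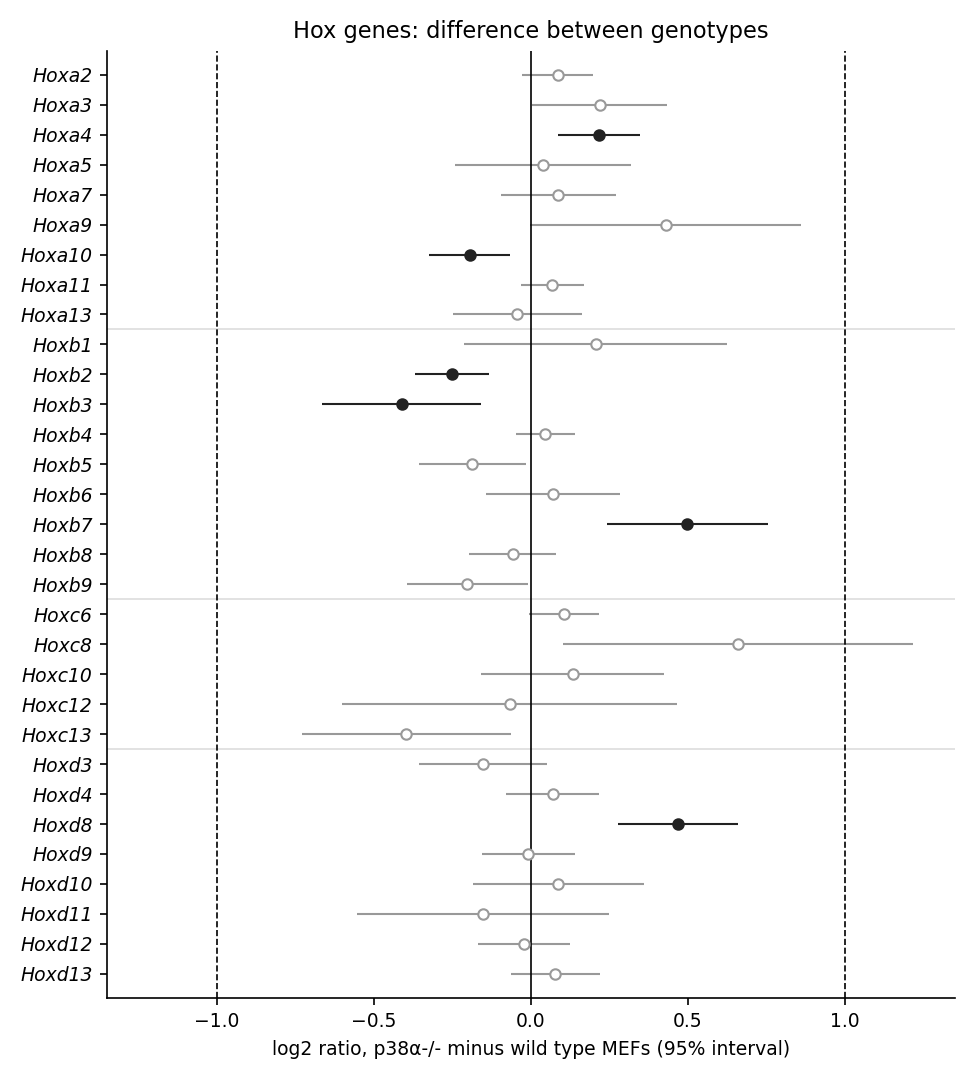
Each point is the log2 difference between p38α-/- and wild type MEFs of 1 Hox gene, with its 95% confidence interval, for the 31 genes tested, grouped by cluster. Black points passed an adjusted p of 0.05, dashed lines mark a 2-fold difference, and the interval of Hoxc8 alone reaches past a dashed line.

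The differences were small. They ran from -0.41 for Hoxb3 to 0.66 for Hoxc8, a dim probe that did not pass (adjusted p = 0.0933, limma), with a median of 0.07 over the 31 members and 0.01 over all genes. The median absolute difference was 0.133 for the members and 0.132 for all genes, and 18 members were higher and 13 lower in the knockout. The 95% confidence interval lay within 2-fold for 30 of the 31 members and within 1.41-fold for 22. The SD within groups had a median of 0.23 over the members, from 0.0814 for Hoxb4 to 0.702 for Hoxc8, and of 0.206 over all genes. With the replicate number as a block within each genotype, Hoxc8 passed as well (0.66, adjusted p = 0.0192, limma), which made 7 of 31 members beside 27.2% of all genes. Hoxc8 was listed at exactly 0.00 on 3 of the 8 knockout arrays, those scanned on day 3, as described further on. With a scan day term its difference was 0.27 (adjusted p = 0.641, limma).

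The medians by cluster and by position along the axis lay near 0. The median difference was 0.08 in cluster A, -0.06 in cluster B, 0.11 in cluster C and 0.03 in cluster D. It was 0.07 for the 9 tested genes numbered 1 to 4, 0.09 for the 9 numbered 5 to 8 and -0.02 for the 13 numbered 9 to 13. The genes past the adjusted p were Hoxa4 and Hoxa10 in cluster A, Hoxb2, Hoxb3 and Hoxb7 in cluster B, and Hoxd8 in cluster D. In cluster B the neighbours Hoxb2 and Hoxb3 were both lower, Hoxb4 (0.04), Hoxb5 (-0.19), Hoxb6 (0.07) and Hoxb8 (-0.06) did not pass, and Hoxb7 was higher.

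Hoxd8, a central member of cluster D with a probe to the transcript AK016033, was higher in the knockout. It read 0.94 and 0.68 in untreated p38α-/- cells, 0.49 and 0.83 with anisomycin, 0.34 and 0.56 with TNFα and 0.39 on the 1 usable array of NaCl. The 20 usable wild type arrays ran from -0.54 to 0.60 with a median of 0.06. The highest wild type arrays thus reached into the knockout range, while the lowest knockout value lay above the wild type median. The difference was 0.47 (SE 0.0898, 1.38-fold, adjusted p = 0.00198, limma). The lowest wild type group was SB203580 with NaCl for 8 h, at -0.54 and -0.33.

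Hoxb7, a central gene of cluster B whose human counterpart is studied in cancers, gave the next result. Its ratios in p38α-/- cells were 0.64 and 0.98 untreated, 0.04 and 1.15 with anisomycin, 0.31 and 0.51 with TNFα, and 0.26 and 0.76 with NaCl. In wild type cells they ran from -0.45 to 0.37 with a median of 0.09. In each knockout group the lower array was the one scanned on day 2, as described further on. The difference was 0.50 (SE 0.122, 1.41-fold, adjusted p = 0.00827, limma).

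Hoxa4, an anterior gene of cluster A, showed a difference of 0.22 (SE 0.0611, adjusted p = 0.0217, limma). The 4 knockout arrays scanned on day 2 lay between -0.07 and 0.00 and the other 4 between 0.22 and 0.27, and 20 wild type arrays ran from -0.47 to 0.09 with a median of -0.08. Hoxa10, a posterior gene with roles in limb, uterus and blood cells, was lower by the smallest amount of the 6: it fell by 0.19 (SE 0.059, adjusted p = 0.0391, limma). Its 16 usable wild type arrays ran from -0.17 to 0.12 and the 8 knockout arrays from -0.51 to -0.12. These calls were close to the threshold. With an array left out Hoxa4 kept its call in 24 of 28 settings and Hoxa10 in 9 of 24, and Hoxa4 lost it without the second array of untreated, anisomycin, TNFα or NaCl knockout cells (0.18 to 0.19).

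Hoxb2 and Hoxb3 adjoin in cluster B and pattern the hindbrain in the embryo. Hoxb3 ran from -0.44 to 1.21 in wild type cells (median 0.08) and from -0.73 to 0.02 in the knockout (median -0.29), a difference of -0.41 (SE 0.12, adjusted p = 0.0235, limma). Hoxb2 ran from -0.37 to 0.58 in wild type cells (median 0.20) and from -0.35 to 0.14 in the knockout (median -0.08), a difference of -0.25 (SE 0.056, adjusted p = 0.00435, limma). For both genes every knockout array lay inside or below the wild type range. Hoxb3 lost its call without the first array of any of the 4 knockout groups (-0.39 to -0.34), while Hoxb2 kept it in 30 of 30 settings.

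The scan day went with the genotype, and it was added as a term after the data had been seen. All first wild type arrays were scanned on day 1, the second wild type arrays and the first knockout arrays on day 2, and the second knockout arrays on days 3 and 4. Only day 2 held both genotypes, with 11 wild type and 4 knockout arrays. With scan day as a fixed term, 3 of the 31 members passed the adjusted p at any size, against 11.2% of all genes. These were Hoxd8 at 0.52 (adjusted p = 0.0287, limma), Hoxb3 at -0.68 (0.00718) and Hoxb9 at -0.35 (0.0426). Within day 2 alone 34 members could be tested and 3 passed, against 6.2% of genes: Hoxd8 at 0.63 (adjusted p = 0.00705, limma), Hoxb3 at -0.68 (0.0457) and Hoxc13 at -0.47 (0.017). That fit had no group means and took arrays of unlike treatment as replicates of their genotype. Its p-values measure the spread between those arrays. With scan day as a random block, 4 members passed against 14.4%, namely Hoxd8 at 0.50, Hoxb3 at -0.52, Hoxb2 at -0.22 and Hoxb9 at -0.28. Hoxd8 and Hoxb3 passed in each of these fits, which share the arrays of day 2 and are not independent of each other. For a gene measured on every array, such as Hoxb3 (-0.68), the fixed term and the fit within day 2 give the same difference by construction. Their agreement is thus not a second result.

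On day 2 Hoxd8 ran from -0.33 to 0.07 on 9 wild type arrays and from 0.34 to 0.94 on 3 knockout arrays, without overlap. Hoxb3 ran from -0.08 to 1.21 in wild type cells and from -0.73 to -0.35 in the knockout, again without overlap. How many of all genes part in this way on day 2 was not counted. A gap is easier to find with so few knockout arrays. Hoxb7 did not keep its difference there. Its day 2 medians were 0.28 in wild type cells and 0.29 in the knockout, the day 1 wild type median was 0.00 and the day 3 knockout median 0.98, and the difference was 0.09 with the scan day term (adjusted p = 0.686, limma). Hoxa4 likewise had medians of -0.04 and -0.03 on day 2 but 0.23 on day 3, and a difference of 0.02 with the term (adjusted p = 0.889, limma). Hoxa10 ran on day 2 from -0.14 to 0.12 on 5 wild type arrays and from -0.19 to -0.16 on 4 knockout arrays. These did not overlap either. With the term Hoxa10 came to -0.09 (adjusted p = 0.574, limma) and Hoxb2 to -0.18 (0.129).

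**Figure D2:**
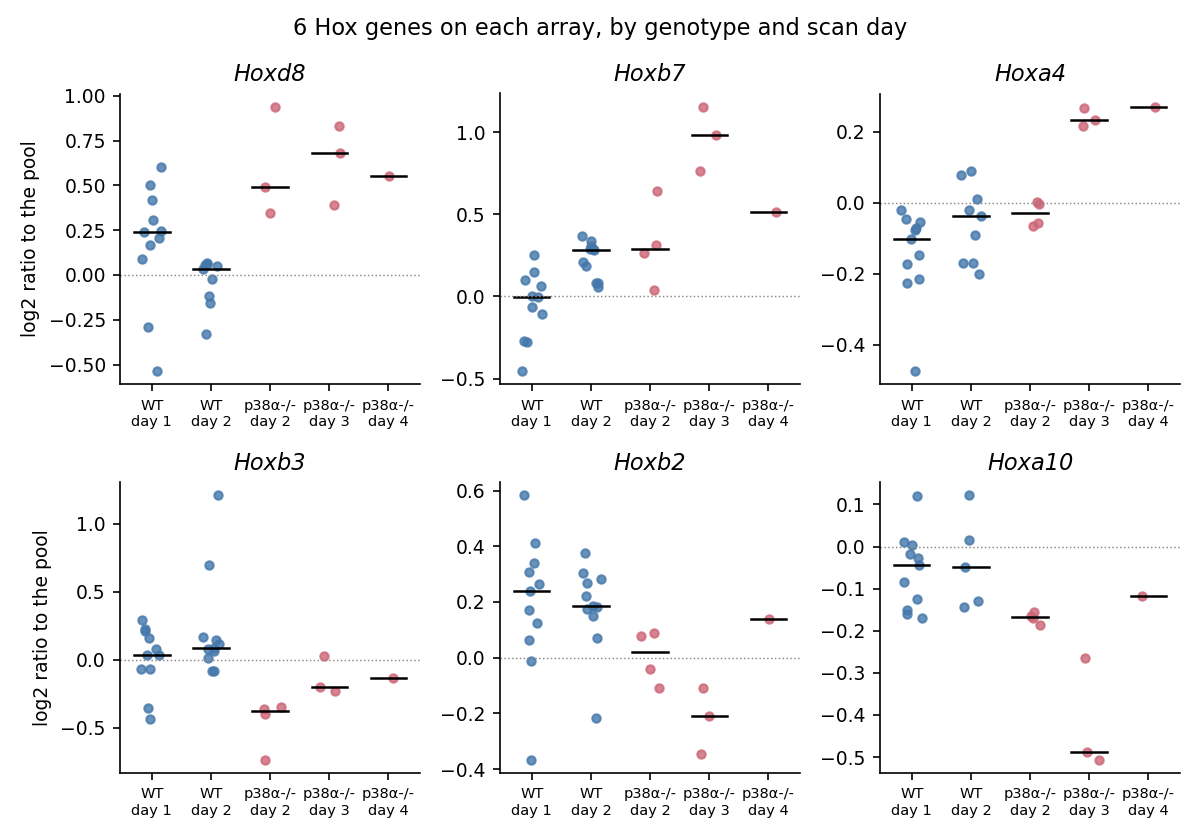
Each point is the log2 ratio to the pool of 1 array for the 6 Hox genes past the adjusted p between genotypes, by genotype and scan day, with bars at the medians. On day 2 the genotypes separate for Hoxd8, Hoxb3 and, narrowly, Hoxa10. How many of all genes separate on day 2 was not counted. The wild type and knockout medians of Hoxb7 (0.28 and 0.29) and Hoxa4 (-0.04 and -0.03) lie together on that day.

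The probes of Hoxb3 did not move together. The probe to the EST BB807385 ran from -0.46 to 1.21 in wild type cells (median 0.71) and from -0.54 to 0.30 in the knockout (median -0.11), a difference of -0.75 (SE 0.123, adjusted p = 0.000319, limma). The probe to NM_010458, which also lists Hoxd3, lay below the pool on all 28 arrays that measured it, with medians of -0.59 and -0.40, and differed by 0.09 (adjusted p = 0.591, limma). The difference of Hoxb3 thus came from 1 probe that lists no RefSeq transcript. The highest wild type values of the gene, 1.21 with SB203580 and NaCl for 45 min and 0.70 with SB203580 alone, were on arrays where the NM_010458 probe was flagged and only the EST probe counted.

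For Hoxb2 both probes pointed the same way. The probe to NM_134032 differed by -0.32 (adjusted p = 0.00387, limma), with medians of 0.46 and 0.17, and that to AK036636 by -0.18 (adjusted p = 0.0742, limma), with medians of -0.03 and -0.22. For Hoxa3, which did not pass (0.22, adjusted p = 0.144, limma), both probes list NM_010452 and lay on opposite sides of the pool, with wild type medians of 0.19 and -0.31, but differed between genotypes by 0.23 and 0.17. The NM_008270 probe of Hoxb9 was lower by itself, at -0.40 (adjusted p = 0.0114, limma), while the gene, averaged with a probe flagged on 18 arrays, stood at -0.20 (0.131). Of the 12 members with a pair of probes, 6 had both tested between genotypes, and the signs were opposite for Hoxb3 and Hoxd9 (0.11 and -0.13).

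**Figure D3:**
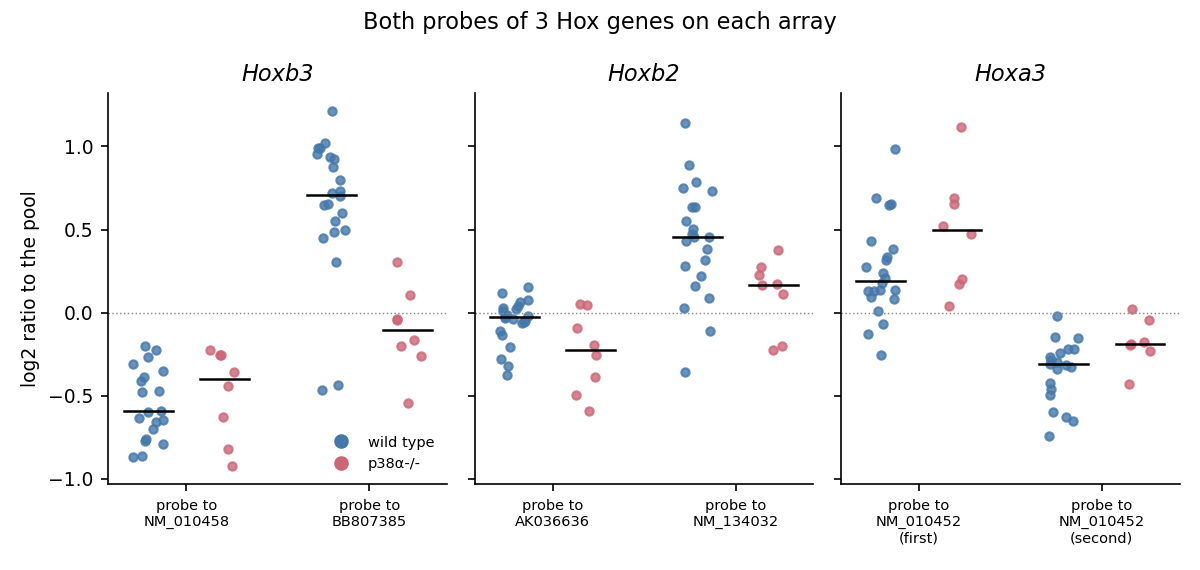
Each point is the log2 ratio to the pool of 1 array for each probe of Hoxb3, Hoxb2 and Hoxa3, with wild type arrays in blue, p38α-/- arrays in red and bars at the medians. The genotypes part for the BB807385 probe of Hoxb3 (medians 0.71 and -0.11) but not for its NM_010458 probe (-0.59 and -0.40).

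Some Hox probes kept a steady offset from the pool. Of the 42 probes measured on at least 15 arrays, 7 lay on the same side of the pool on every one, which is to be read against 11% of all 28205 such probes. Those below were the probes of Hoxd4, Hoxb13 and Hoxb5, the NM_010458 probe of Hoxb3, the AK077862 probe of Hoxd13 and 1 of the probes of Hoxa13, and the probe of Hoxd1 was above. The pool was untreated wild type RNA, and the knockout arrays shared the offset: Hoxb5 ran from -0.78 to -0.03 in wild type and from -0.86 to -0.08 in knockout cells. Such an offset enters every value against the pool and the comparisons of stress responses between genotypes, but cancels between knockout and wild type arrays.

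The other 7 members, among them Hoxa6, Hoxb13, Hoxc4, Hoxc9 and Hoxd1, lacked a usable spot in at least 1 group and were not tested. They were measured on 2 arrays (Hoxc4) to 15 arrays (Hoxa6, Hoxb13 and Hoxd1). With flagged spots kept, their differences between genotypes ran from 0.00 for Hoxd1 to 0.20 for Hoxc9. In that setting Hoxc9 passed the adjusted p (0.0253, limma), as did Hoxb6 (0.18, adjusted p = 0.0449, limma), which made 8 of 38 members at any size. The share of all genes that passed in that setting is not given here, so this count has no background beside it. Hoxb13, the last gene of cluster B, lay between -1.37 and -0.55 on its 15 arrays.

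Comparing the genotypes under the same stress left no Hox gene past the adjusted p. With anisomycin 0 of 32 members passed (1.07% of all genes), under TNFα 0 of 32 (0.306%) and under 2 h of NaCl 0 of 37 (0.553%). Each rests on 2 arrays against 2, and without 1 of them a call appeared: Hoxc12 with NaCl for 2 h without the second wild type array, and Hoxa13 with anisomycin without the first knockout array. The medians of the members were 0.12, 0.07 and -0.01.

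Untreated p38α-/- cells against the pool gave 1 call, Hoxa9, among 32 members at 2-fold, against 1.79% of genes. Hoxa9, a posterior gene best known from blood stem cells and leukaemia, read -1.70 and -0.77 there (mean -1.23, SE 0.334, adjusted p = 0.0238, limma). Without the first array it was -0.77 (adjusted p = 0.504, limma). At any size 5 of 32 passed against 13.9% of genes. Hoxd8 and Hoxb7 were higher, both by 0.81, and Hoxa9, Hoxb5 (-0.53) and Hoxd9 (-0.43) lower. Hoxa9 was low in wild type cells too: its wild type arrays ran from -2.27 to 0.36 with a median of -0.98 and knockout arrays from -1.70 to 0.38 with a median of -0.40, and the difference of 0.43 between genotypes did not pass (adjusted p = 0.154, limma).

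Hox genes called at 2.5-fold against the pool in wild type cells were Hoxc12 with NaCl for 2 h (1 of 37 members, against 0.588% of genes) and Hoxa9 with SB203580 alone (1 of 35, against 0.982%). Hoxa9 read -2.27 and -1.24 with the inhibitor alone (mean -1.76, SE 0.334, adjusted p = 0.0023, limma). With the inhibitor and a stress it lay between -1.25 and 0.06, and with a stress alone between -1.25 and 0.36, so the first array with SB203580 alone was lower than all others. Without it the value was -1.24 (adjusted p = 0.164, limma).

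Hoxc12, a posterior gene of cluster C expressed at the tail end and in hair follicles, read 3.52 and 0.36 with NaCl for 2 h (mean 1.94, SE 0.435, adjusted p = 0.00924, limma). All other wild type arrays lay between -0.96 and 0.61, including -0.19 and -0.11 with NaCl for 45 min and -0.96 and -0.07 with NaCl for 8 h. The mean was carried by 1 array. Without that array the value was 0.36 (adjusted p = 0.789, limma). Under NaCl for 2 h with SB203580 it read -0.56 and 0.18, and in p38α-/- cells 0.23 and 0.00. Cy5 was well above background on both wild type arrays with NaCl alone and on none of these 4. The difference between knockout and wild type cells at 2 h was -1.82 and did not pass (adjusted p = 0.243, limma).

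**Figure D4:**
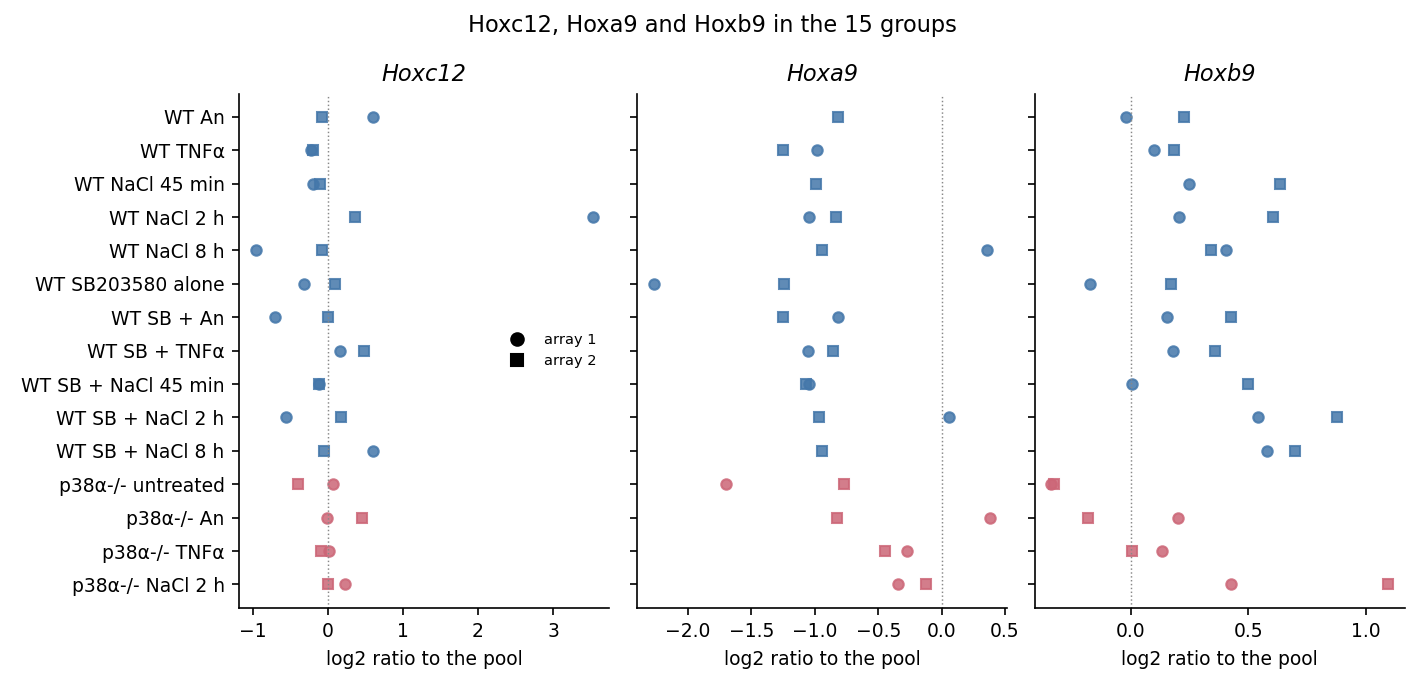
Log2 ratios to the pool of Hoxc12, Hoxa9 and Hoxb9 in the 15 groups, with circles for array 1, squares for array 2, wild type in blue and p38α-/- in red. Hoxc12 reads 3.52 on 1 array of wild type cells with NaCl for 2 h, Hoxa9 lies below the pool on most arrays, and Hoxb9 is highest in knockout cells with NaCl (1.09).

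At any size, members past the adjusted p against the pool in wild type cells were few, and their share lay above that of all genes in 4 of the 11 groups (anisomycin, NaCl for 2 h, and SB203580 with either). With anisomycin 4 of 32 passed (10.8% of all genes), Hoxb2 at 0.44 being higher and Hoxa6, Hoxd4 and Hoxd9 lower, Hoxa6 on 1 usable array. With TNFα 2 of 36 passed (8.31%), Hoxb2 at 0.34 and Hoxd9 at -0.52. With NaCl for 45 min 2 of 32 passed (7.07%), Hoxa13 at -0.57 and Hoxd9 at -0.69. With NaCl for 2 h 6 of 37 passed (8.94%), with Hoxc12, Hoxa5 (0.74), Hoxb6 (0.59) and Hoxb2 (0.34) higher and Hoxb5 (-0.56) and Hoxd4 (-0.42) lower. With NaCl for 8 h 3 of 36 passed (18.5%), namely Hoxb13, Hoxb5 and Hoxd9, all lower.

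With SB203580 alone 6 of 35 passed (26.9%), all lower: Hoxa9, Hoxa6, Hoxc10, Hoxd13, Hoxb5 and Hoxa4. The values of Hoxa6, Hoxc10 and Hoxd13 rest there on 1 usable array each. With SB203580 and anisomycin 4 of 35 passed (9.85%), with TNFα 2 of 33 (7.57%), with NaCl for 45 min 2 of 35 (12.8%), for 2 h 6 of 36 (14.4%) and for 8 h 5 of 37 (17.9%). Hoxb13 rests on 1 usable array with SB203580 and anisomycin and with SB203580 and NaCl for 8 h. Higher among these were Hoxb9 at 0.71 with SB203580 and NaCl for 2 h and 0.64 for 8 h, and Hoxb6 at 0.55 for 2 h. The rest were lower, for example Hoxb13 at -1.11 with SB203580 and NaCl for 45 min. With SB203580 and NaCl for 2 h Hoxb6 was at 0.25 without the second array (adjusted p = 0.645, limma) and at 0.25 with flagged spots kept (adjusted p = 0.0974, limma). With NaCl for 2 h alone Hoxb6 was at 0.15 with flagged spots kept (adjusted p = 0.334, limma) and lost its call when either array was left out. With the replicate block the count rose by over 1.5 times in 3 groups: to 4 of 32 with NaCl for 45 min (13.9% of genes), to 5 of 36 with NaCl for 8 h (23.1%) and to 7 of 35 with SB203580 and NaCl for 45 min (18.8%).

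Hoxd9, a posterior gene of limb and spinal cord, was the member most often past the adjusted p. It passed below the pool in 9 of the 11 wild type groups, from -0.69 with NaCl for 45 min to -0.40 with SB203580 and NaCl for 2 h, and in untreated knockout cells at -0.43. It was also below the pool, without passing, with NaCl for 2 h (-0.18) and with SB203580 alone (-0.32). Leaving out either array ended the call except with NaCl for 45 min, NaCl for 8 h and SB203580 with NaCl for 8 h, where 1 of the 2 settings kept it. Between genotypes it stood at -0.01. Hoxa5, a central gene of lung and neck development, read 1.11 and 0.36 with NaCl for 2 h in wild type cells, 0.57 on the 1 usable array with SB203580 and NaCl, and 0.46 and 1.08 in p38α-/- cells with NaCl. Its untreated knockout arrays read 0.14 and 0.23, below both knockout arrays with NaCl, but Hoxa5 did not pass in the knockout. How many of all genes part in this way was not counted. In wild type cells, set against the pool, the value with NaCl for 2 h was 0.36 without the first array.

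**Figure D5:**
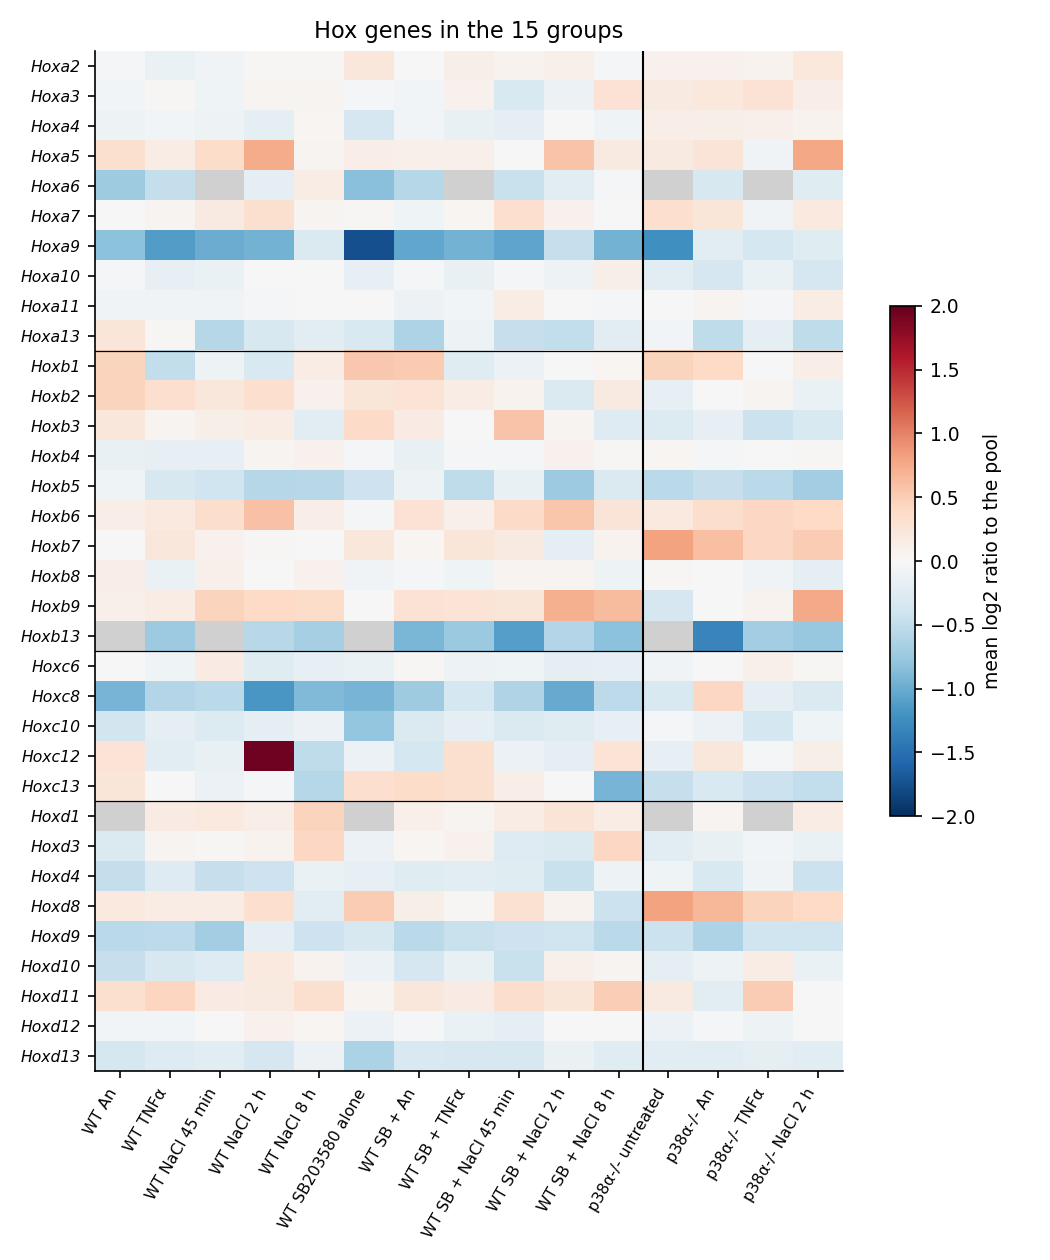
Mean log2 ratio to the pool, in the 15 groups, of the Hox genes measured on at least 15 of the 30 arrays, ordered by cluster, with grey where no array had a usable spot and wild type groups to the left of the line. Hoxa9, Hoxb5, Hoxb13 and Hoxd9 are mostly blue, below the pool, across both genotypes, and the darkest red cell is Hoxc12 with NaCl for 2 h (1.94).

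In p38α-/- cells, NaCl for 2 h against no stress gave 1 call among 32 members at 2-fold, Hoxb9, against 0.466% of genes. At any size the same gene was the 1 member past the adjusted p, against 0.854%. Hoxb9, a posterior gene of rib and limb patterning, read -0.34 and -0.33 untreated and 0.42 and 1.09 with NaCl, a difference of 1.09 (SE 0.222, 2.13-fold, adjusted p = 0.0224, limma). The groups did not overlap, but the share of all genes that part in this way was not counted. On the second NaCl array the probe to AK078860, flagged on 18 of the 30 arrays, read 2.04. The NM_008270 probe read at most 0.42 on any knockout array. Without the second NaCl array the difference was 0.76, under the 2-fold threshold. Without the first or the second untreated array it missed the threshold (adjusted p = 0.158 and 0.0807, limma). In wild type cells Hoxb9 read 0.21 and 0.60 with NaCl for 2 h, a mean of 0.41 that did not pass. Anisomycin and TNFα in the knockout moved 0 of 31 members each past the adjusted p, against 0.0728% and 0.0635% of genes.

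Later osmostress, the inhibitor and the difference between responses left no Hox gene past the adjusted p. NaCl for 8 h against 45 min gave 0 of 32 members, against 5.26% of genes, with member differences from -0.45 to 0.70. SB203580 with stress against stress alone, averaged over the 5 stresses, gave 0 of 31 against 0.0626%, with differences from -0.28 to 0.18. The response in knockout cells minus that in wild type cells gave 0 of 31 for anisomycin (0.547%), 0 of 31 for TNFα (0.223%) and 0 of 32 for 2 h of NaCl (0%). The largest positive differences of response were those of Hoxa9, at 1.83, 1.99 and 1.94 (adjusted p = 0.209, 0.155 and 0.197, limma). They contain the offset of Hoxa9 from the pool.

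The partners and regulators of Hox genes were read from lists in the comparison of genotypes, where 17.9% of all genes passed the adjusted p at any size. Of the TALE cofactors 0 of 9 passed the adjusted p and Meis1 stood at 0.16. Of the upstream regulators, among them the Cdx factors and Gli3, 0 of 14 passed. Of 23 Polycomb repressors, which keep Hox genes silent, 3 were higher and 5 lower at any size and 0 passed 2-fold. Cbx7, which reads the Polycomb histone mark, was at -0.68, Rybp at -0.45 and Suz12, a core subunit, at 0.43. Of 22 Trithorax and activating factors 2 passed, both higher, with Rbbp5, a subunit of histone H3 methyltransferases, at 0.59 (adjusted p = 1.98e-05, limma).

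Of 16 genes of the retinoic acid pathway 5 passed the adjusted p, all lower in p38α-/- cells, and 1 of them by over 2-fold. Aldh1a2, which makes retinoic acid from retinal, ran from -0.01 to 1.05 in wild type cells (median 0.33) and from -2.04 to -1.15 in the knockout (median -1.59). The genotypes did not overlap, and Aldh1a2 differed by -1.89 (SE 0.14, 3.71-fold, adjusted p = 4.43e-06, limma). Rdh10, which makes retinal, was at -0.90, Dhrs3, which reduces it again, at -0.68, Cyp26a1, which breaks retinoic acid down, at -0.56 and the receptor Rarb at -0.42. The median over the 16 genes was positive, at 0.08, since the genes that did not pass lay mostly above 0.

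Among other homeobox and patterning genes, En1, a factor of the midbrain border and ventral limb skin, ran from -0.24 to 1.11 in wild type and from 1.05 to 2.24 in knockout cells, a difference of 1.24 (adjusted p = 6.94e-05, limma). It was the 1 call at 2-fold among 7 genes related to Hox, where 2 passed at any size. Of 41 other patterning factors 5 were higher and 3 lower at any size, with Tcf21, a mesenchymal factor, the 1 past 2-fold at 1.52. Of 21 genes described as Hox targets 4 were higher and 2 lower. Col5a2, a fibrillar collagen chain, ran from -0.07 to 0.56 in wild type and from 3.29 to 3.97 in knockout cells, a 10.2-fold difference (log2 3.36, adjusted p = 2.37e-12, limma), and was the 1 past 2-fold. Of 15 genes next to the clusters, 3 passed at any size and 0 at 2-fold: Snx10 (0.54) and Atp5g1 (0.17) were higher and Copz1 (-0.28) lower.

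Osmostress for 2 h moved some of these genes in both genotypes, and most Hox genes, like most genes, stayed below the thresholds. Of all genes 0.588% were called in wild type and 0.466% in p38α-/- cells. Among Hox genes 1 of 37 and 1 of 32 were called. Of 11 TALE factors 1 was called in wild type cells, and Tgif, a repressor of this class, rose by 1.74 (SE 0.237, 3.33-fold) there and by 1.54 (SE 0.336, 2.91-fold) in p38α-/- cells. Of 48 other patterning factors 4 were called in wild type cells, all higher. Dlx2, a homeobox gene of jaw and forebrain, rose 5.62-fold, Twist1, a mesenchymal factor, 3.15-fold, and the forkhead factor Foxc1 by 1.32 on the log2 scale. Dlx2 and Twist1 were also called in p38α-/- cells, at 5.41-fold and 2.54-fold. In the knockout 2 of 45 patterning factors and 1 of 10 TALE factors were called.

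Markers of other cell types were read beside the genotype comparison. Of 17 fibroblast markers tested, 4 were higher, 1 lower and 0 past 2-fold. Of 4 epithelial markers 1 passed (Ocln, -0.25), of 6 endothelial 1 (Kdr, a growth factor receptor, -1.60 and past 2-fold), of 9 blood 1 (Itgam, 0.18), of 6 muscle 1 (Myog, 0.81), of 5 pluripotency 1 (Nanog, 0.19) and of 4 neural markers 0. The part of cell composition in the Hox values was not tested.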

How the data were processed

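Total RNA of wild type and p38α-/- MEFs was amplified, labelled and hybridised against the pool on 30 2-colour Agilent arrays. The authors extracted the spots with Agilent Feature Extraction (version 9.1 in the submitters' notes), without local background subtraction and with a linear and LOWESS dye normalization. The deposited LogRatio values are log10 ratios of processed Cy5 to Cy3 intensities, and the deposited processed intensities and background flags were used for detection. The deposited series matrix holds log2 values, a scale judged from their fit to the scanner ratios, and served as an alternative.

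Control spots and spots with an outlier flag in either channel were left out, ratios were converted to log2, and the spots of each probe, then the probes sharing a symbol, were reduced to their mean. limma 3.58.1 in R 4.3.3 fitted 15 group means to 30 arrays (15 residual degrees of freedom) and 24 contrasts, with Benjamini-Hochberg adjustment over all genes measured in every group of a contrast. Calls needed an adjusted p under 0.05 and a log2 difference of 1, or 2.5-fold for wild type treatments against the pool. Differences of response needed the adjusted p alone, and the text also gives calls at the adjusted p at any size. Named genes were the members called in any comparison, members compared with a neighbour or paralogue, Hoxc12, which the study's text names, Mapk14, and the called genes of each list with the largest differences, up to 5. Members past the adjusted p without the size and list genes that were not called were named after their values were seen. Members and lists were chosen with earlier results of these data known. On simulated data with 200 changed genes among 17149, the comparison of genotypes recovered 20% of changes of 0.25, 76% of 0.5 and 100% of 1.5 on the log2 scale, with 7 false calls. The simulated noise was independent between arrays, without the scan days or the replicate pairing of the real arrays. These rates need not hold for the real data.

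Replicate numbers paired the arrays within each genotype: deviations from group means correlated above 0.1 in 55 of 55 wild type pairs (0.22 to 0.66) and 6 of 6 knockout pairs (0.16 to 0.39). The fit with this block is given for the comparison of genotypes and for some wild type groups. Against the pool the count of members past the adjusted p at any size rose with the block in every wild type group. With NaCl for 2 h, for example, it went from 6 to 9 of 37 members, while the share of all genes went from 8.94% to 14.3%. Promoter windows and transcript names came from RefSeq tables of GRCm38.p6. Figures were drawn with Python 3.11.15 and matplotlib 3.10.9. Values of a few genes are not reported here.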

Additional observations from a re-analysis of the deposited data

How the results depend on the processing

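With 2 arrays per group and many members near the pool, few Hox calls held under every setting. Between genotypes 0 members passed 2-fold under every alternative run. At any size 6 members passed. This became 3 with genes measured on all arrays, 1 with the 3 shared treatments alone and 3 without the SB203580 groups. The shares of all genes in those settings are not given here, so these counts have no background beside them. The count was 3 with a scan day term and 3 within scan day 2, both chosen after seeing the data. Hoxb3 reversed to 0.091 with its NM_010458 probe alone, also chosen after seeing the data. Centring each array on its median left the same 6. With the replicate block, which follows the pairing within genotypes, 7 members passed at any size, and no call at the size threshold changed. Normexp with loess left 1 of the 2 wild type treatment calls, since Hoxc12 with NaCl for 2 h came to 0.86, and 0 in stressed knockout cells, where the series matrix values and keeping outlier spots also gave 0. For the difference of response the count of 0 over the 3 stresses became 2 with series matrix values and 7 with outlier spots kept. With series matrix values Hoxb13 passed with anisomycin (1 of 38, 6.18% of all genes) and TNFα (1 of 38, 7.57%). None of 35 passed with NaCl (3.75%). With outlier spots kept 4 of 38 passed with anisomycin (7.2%), 3 of 38 with TNFα (8.13%) and 0 of 38 with NaCl (3.54%). Leaving out each array in turn gave 4 to 7 members at any size between genotypes, 0 to 1 at a shared treatment, 0 to 1 in untreated knockout cells, 1 to 3 in wild type treatments, 0 to 1 in stressed knockout cells and 0 to 1 for the difference of response. The causes were not tested. For single members, 234 of 271 other settings and 168 of 261 with an array left out kept direction and side of the threshold.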
